A study of Homo sapiens with 12 samples.

Results

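RNA polymerase II and Mediator are the machinery that copies protein-coding genes into mRNA, and this is an account of the transcripts of their subunits in human gastric cancer cells. The members are 44 genes, 12 encoding RNA polymerase II subunits (POLR2A to POLR2L) and 32 encoding Mediator subunits, chosen by symbol and matched to the Ensembl identifiers of the count table. All 44 were among its 32269 genes, and all 44 were among the 20280 genes with enough counts to be tested. The lowest count of any member in any library was 117. AGS and MKN1 are established human gastric cancer cell lines, labelled as wild type. Both were cultured in RPMI-1640 with fetal bovine serum and either left untreated or treated with cantharidin sodium, a salt of cantharidin, a toxin made by blister beetles that blocks the phosphatases PP2A and PP1. The 4 groups, untreated AGS, treated AGS, untreated MKN1 and treated MKN1, held 3 libraries each, described in the series' design text as biological replicates. The labels state neither the dose nor how long cells were treated.

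RNA polymerase II is built around its catalytic subunits POLR2A and POLR2B. POLR2A carries the long repeat tail, the C-terminal domain, that is phosphorylated as transcription starts, pauses and elongates, and dephosphorylated so that the enzyme can be used again. Some of its small subunits are also part of RNA polymerases I and III. Mediator is a coactivator that joins transcription factors at enhancers to the polymerase at promoters: its tail module contacts activators, its head and middle modules contact the polymerase, MED14 holds the modules together, and a detachable kinase module with CDK8 or CDK19 regulates the rest.

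The libraries held between 28604966 and 51604215 counts. Log2 levels of AGS replicates correlated at 0.9876 to 0.9901. MKN1 untreated replicate 3 stood apart, at 0.9702 and 0.9722 with the other two replicates, which correlated at 0.9853, so MKN1 counts are given with and without it. The treated MKN1 libraries correlated at 0.9771 to 0.9815, also below all AGS pairs. Markers of the labelled epithelial type were present, with 6 of 6 (EPCAM, KRT8, KRT18, KRT19, CDH1 and CLDN4) above 1 CPM (counts in a library scaled to the same total) in every group. Of 5 squamous markers (KRT5, KRT14, KRT6A, TP63 and SFN), 5 were above 1 CPM in MKN1, with sums of 1588 to 3145 CPM in untreated and 2236 to 3116 CPM in treated libraries. Only SFN was above 1 CPM in AGS, where the sums were 160 to 198 CPM in untreated and 90.2 to 107 CPM in treated libraries. Markers of fibroblasts, endothelium and blood, of which 11 were in the table, summed to 33.3 to 42.2 CPM in untreated and 13.2 to 17.0 CPM in treated AGS cells, and to 63.9 to 75.7 and 39.5 to 48.7 CPM in MKN1. Of the 9 tested, 4 fell in AGS (COL1A1, VWF, HBB and HBA1) and 3 rose (COL1A2, COL3A1 and CD68), with a median log2 fold change of 0.86, and 1 fell in MKN1 (CD68). These shares, 77.8% in AGS and 11.1% in MKN1, compare with 20.8% and 6.7% of all genes tested. HBB was at 18.9, 8.48 and 6.80 CPM in untreated AGS libraries and at most 0.0774 CPM in treated ones, and HBA1 had no count in treated AGS. CD68 was at 1.10, 1.34 and 0.976 CPM in untreated and 1.70, 2.68 and 1.79 CPM in treated AGS libraries, while COL1A2 and COL3A1 reached at most 0.669 and 0.213 CPM in treated ones. The part of such differences in the results below was not tested.

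In AGS cells, 7 of the 12 polymerase II subunit genes fell after cantharidin sodium and none rose. POLR2L fell furthest, to 0.427 times its untreated level, followed by POLR2I, POLR2F, POLR2A, POLR2E, POLR2J and POLR2C. The 58.3% that passed the test compares with 20.8% of all genes tested, with 11.6% for lower and 9.21% for higher levels. The median log2 fold change of the 12 genes was −0.46, against −0.01 for all genes tested, and 11 of the 12 lay below 0. Of all 20280 genes tested, 10310 lay below 0. Calls are from edgeR's quasi-likelihood test at a Benjamini-Hochberg adjusted p below 0.05 over all genes. CPM are shares of the counted RNA of a bulk sample: a lower level in every cell and a change in some of the cells cannot be told apart, and RNA per cell was not measured.

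**Figure D1:**
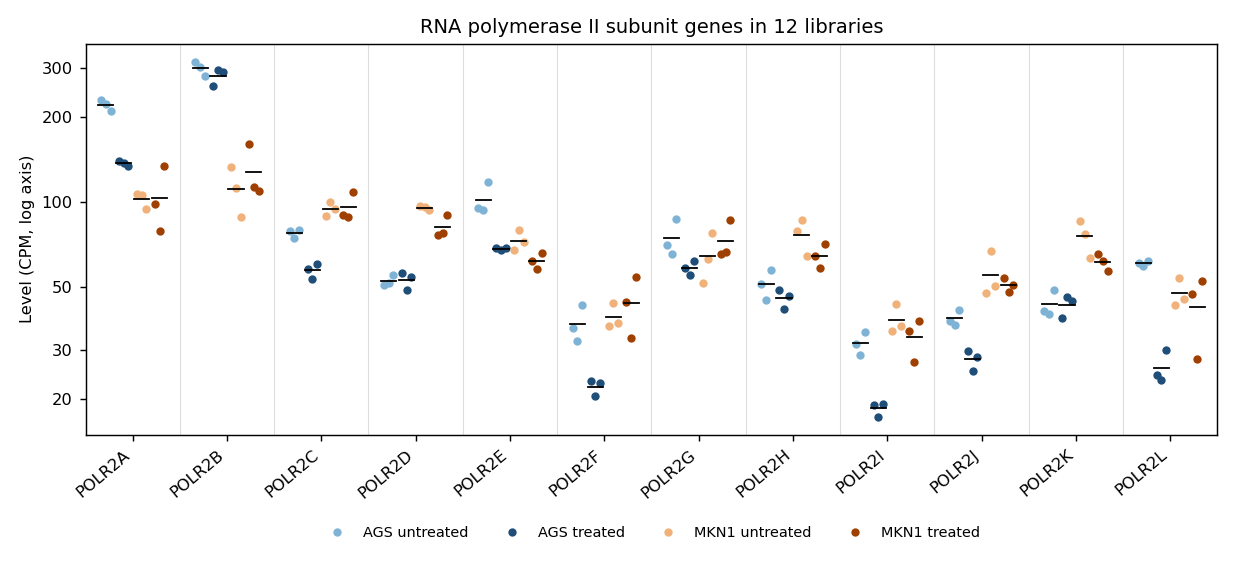
Levels of the 12 RNA polymerase II subunit genes in each of the 12 libraries, in CPM on a log axis; points are libraries and short bars are group means. In AGS the treated libraries (dark blue) of POLR2A, POLR2C, POLR2E, POLR2F, POLR2G, POLR2I, POLR2J and POLR2L lay below all untreated ones (light blue), whereas in MKN1 (orange) the groups overlapped for 10 of 12 genes.

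POLR2A (ENSG00000181222, chromosome 17, 7484366 to 7514616 in GRCh38) encodes the largest subunit, which forms the active site together with POLR2B and bears the C-terminal domain. Its level was 231, 223 and 211 CPM in untreated AGS libraries and 140, 138 and 134 CPM in treated ones. The groups were far apart compared with their spread (222 ± 9.91 against 138 ± 3.07 CPM, SD, n = 3 each). The log2 fold change was −0.69 (SE 0.15, adjusted p = 0.00913). POLR2B, the other catalytic subunit, had overlapping libraries of 282 to 315 and 259 to 295 CPM and its log2 fold change was −0.09 (SE 0.17, adjusted p = 0.732). Per kilobase of exon, POLR2B stood at 50.8 and POLR2A at 26.5 CPM per kb in untreated AGS cells, and at 47.7 and 16.5 in treated ones.

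The subunits common to polymerases I, II and III are POLR2E, POLR2F, POLR2H, POLR2K and POLR2L, and 3 of these 5 fell in AGS. POLR2L (ENSG00000177700, chromosome 11, 837356 to 842545) encodes a small zinc-binding subunit of the assembly platform. Its level was 60.8, 59.2 and 62.0 CPM in untreated and 24.4, 23.4 and 29.8 CPM in treated AGS libraries. The log2 fold change of −1.23 (SE 0.19, adjusted p = 0.00163) was the largest of the 44 members in either line. POLR2F (ENSG00000100142, chromosome 22, 37952607 to 38041915) encodes a subunit at the base of the clamp. It was at 35.8, 32.2 and 43.1 CPM in untreated and 23.2, 20.5 and 22.8 CPM in treated libraries, with −0.74 as the log2 fold change (SE 0.17, adjusted p = 0.0104). POLR2E (ENSG00000099817, chromosome 19, 1086579 to 1095380) encodes a subunit of the jaw that grips incoming DNA. It was at 95.4, 93.6 and 118 CPM in untreated libraries, and the treated ones were close together at 68.8, 67.6 and 68.6 CPM (log2 fold change −0.58, SE 0.11, adjusted p = 0.00405). POLR2H and POLR2K did not pass, with overlapping libraries and means of 51.3 ± 6.29 and 45.8 ± 3.62 CPM for POLR2H and of 43.4 ± 4.79 and 43.2 ± 3.88 CPM for POLR2K.

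Of the subunits particular to polymerase II, POLR2I (ENSG00000105258, chromosome 19, 36113710 to 36115346), which is known for its role in transcript cleavage and fidelity, was at 31.5, 28.7 and 34.6 CPM in untreated and 19.0, 17.3 and 19.3 CPM in treated AGS libraries. Its log2 fold change was −0.77 (SE 0.14, adjusted p = 0.00356). POLR2C and POLR2J, which pair to start the assembly of the enzyme, went from 77.9 ± 2.74 to 57.4 ± 3.49 CPM (log2 fold change −0.44, adjusted p = 0.0115) and from 38.8 ± 2.47 to 27.7 ± 2.26 CPM (−0.48, adjusted p = 0.022). The stalk subunits POLR2D and POLR2G did not pass: POLR2D had means of 52.6 ± 2.14 and 53.1 ± 3.61 CPM, and POLR2G had 74.5 ± 11.5 and 58.5 ± 3.24 CPM (log2 fold change −0.35, adjusted p = 0.148). All 3 treated libraries lay below all 3 untreated ones for 8 of the 12 genes, while 26.8% of all genes tested had libraries apart in that direction, 25.6% in the other and 52.4% in either.

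The library kit does not mark strand, and 79.6% of the exon bases of POLR2I and 22.5% of those of POLR2L overlap genes on the other strand (TBCB and others for POLR2I, CD151 for POLR2L), so these values are uncertain, as is POLR2J, which has the near-identical copies POLR2J2 and POLR2J3. The count of 7 was between 5 and 7 when any 1 library was left out. Calls over all genes tested in AGS then ran from 2051 to 5533, against 4214 with all libraries. POLR2J missed the threshold without AGS untreated replicate 1 or 3 or AGS treated replicate 2 or 3. POLR2F missed it without AGS untreated replicate 3, and POLR2C without AGS treated replicate 2.

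Promoter sequences are shown for the polymerase genes that fell furthest without and with an overlapping neighbour (POLR2A and POLR2L), for one that did not pass (POLR2D), and for the Mediator genes with the largest decrease and the largest increase in AGS (MED27 and CDK19). They are the 150 bases before the RefSeq start, on the gene's strand, from RefSeq's GRCh38.p14 promoters, with matches to the GC box (GGGCGG) or the CCAAT box (CCAAT) on either strand in capitals. The windows are chr17:7484216-7484365 on the plus strand for POLR2A, and on the minus strand chr11:842530-842679 for POLR2L, chr2:127858156-127858305 for POLR2D, chr9:132079868-132080017 for MED27 and chr6:110815856-110816005 for CDK19.
POLR2A: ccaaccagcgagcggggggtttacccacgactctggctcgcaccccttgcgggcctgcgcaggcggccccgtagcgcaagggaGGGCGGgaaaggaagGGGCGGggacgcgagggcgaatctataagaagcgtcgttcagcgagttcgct
POLR2L: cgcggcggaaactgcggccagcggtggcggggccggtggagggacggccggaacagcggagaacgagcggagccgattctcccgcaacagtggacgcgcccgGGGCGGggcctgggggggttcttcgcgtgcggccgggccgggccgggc
POLR2D: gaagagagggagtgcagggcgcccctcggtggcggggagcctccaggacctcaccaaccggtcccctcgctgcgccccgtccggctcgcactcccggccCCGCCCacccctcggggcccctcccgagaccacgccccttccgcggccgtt
MED27: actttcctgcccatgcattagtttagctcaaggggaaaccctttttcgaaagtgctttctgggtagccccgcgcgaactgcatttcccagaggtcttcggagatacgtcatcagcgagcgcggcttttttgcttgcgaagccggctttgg
CDK19: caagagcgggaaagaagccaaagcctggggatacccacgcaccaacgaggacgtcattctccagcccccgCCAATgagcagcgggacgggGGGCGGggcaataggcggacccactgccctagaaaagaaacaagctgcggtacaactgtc

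RefSeq entries matched 32 of the 44 members, 8 polymerase and 24 Mediator genes. A GC box was present in 6 of 8 polymerase and 15 of 24 Mediator windows (75.0% and 62.5%), beside 36.7% of 27305 promoter windows of the same length. Among polymerase genes that fell in AGS, POLR2A, POLR2E and POLR2L held it, and POLR2C and POLR2F did not. POLR2B, POLR2D and POLR2H, which did not pass the test in AGS, held it too. CDK19, which rose, held it, and MED27, which fell, did not. A link between motifs and changes was not tested. An ETS core (CCGGAAG) was present in 2 of 8 and 5 of 24 windows, beside 7.18% of all, and a CCAAT box in 0 of 8 and 7 of 24, beside 24.4% of all. A TATA box (TATAAA), a YY1 motif (AAGATGGCG) and an E-box (CACGTG) were searched too: none of the members' windows held the first or the second, which 7.05% and 0.418% of all windows held, and 1 Mediator window (MED13L) held the third, beside 4.68% of all. The NRF1 motif was in the windows of POLR2F and MED18 and in 0.982% of all. The median GC content was 68.3% in the polymerase windows, 62.7% in the Mediator windows and 59.3% in all.

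Mediator genes moved less and in both directions in AGS. Of 32 genes, 4 fell (MED27, MED26, MED16 and MED24) and 2 rose (CDK19 and MED23), 18.8% in all, close to the 20.8% of all genes tested. The median log2 fold change was −0.07, and 20 of 32 genes lay below 0, beside 10310 of all 20280 genes tested. The treated libraries lay below all untreated ones for 15 Mediator genes (46.9%, beside 26.8% of all genes tested) and above them for 9 (28.1%, beside 25.6%).

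**Figure D2:**
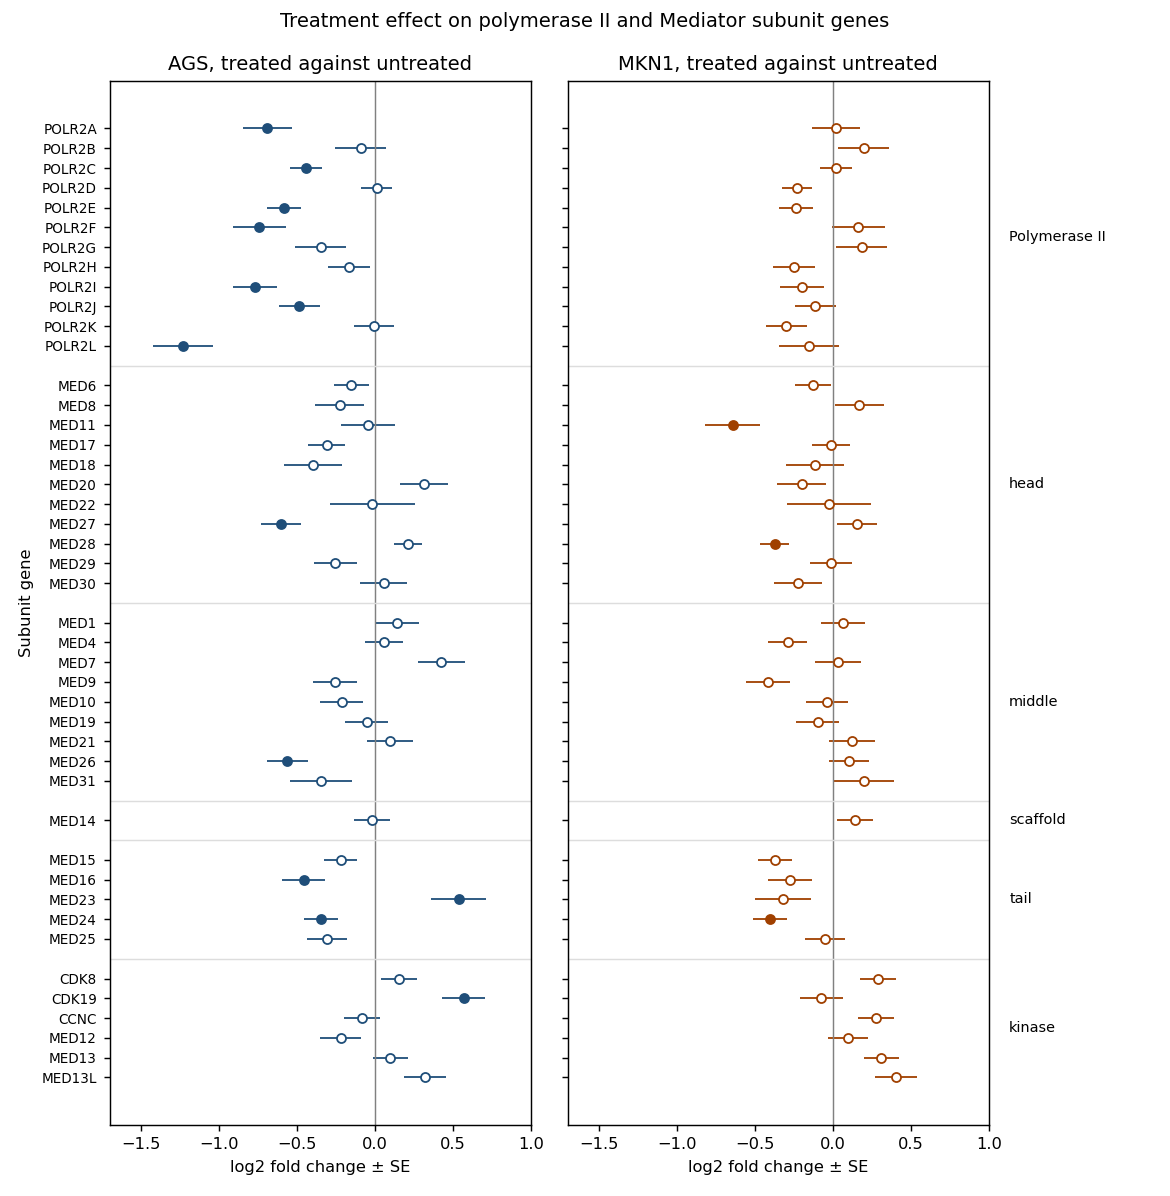
Log2 fold change of each of the 44 subunit genes, treated against untreated, with the SE of the fit as bars, in AGS (left) and MKN1 (right); filled points had an adjusted p below 0.05. In AGS the polymerase genes lie to the left, down to −1.23 for POLR2L, and Mediator genes lie on both sides of 0; in MKN1 all 12 polymerase genes lie between −0.30 and 0.20.

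Of the 11 head subunits, which contact the polymerase, 1 passed. MED27 (ENSG00000160563, chromosome 9, 131860107 to 132079908) was at 24.8, 26.0 and 29.9 CPM in untreated and 17.4, 18.5 and 17.3 CPM in treated AGS libraries. The groups did not overlap, and the log2 fold change was −0.60 (SE 0.13, adjusted p = 0.00667). The head subunits that form its fixed core did not pass: MED17 had means of 43.9 ± 2.27 and 35.5 ± 1.44 CPM (log2 fold change −0.31, adjusted p = 0.0851), and MED6 had 61.7 ± 2.08 and 55.7 ± 1.56 CPM (−0.15, adjusted p = 0.37).

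Of the 9 middle subunits, MED26 (ENSG00000105085, chromosome 19, 16574907 to 16629062), which is known to recruit elongation factors, was at 13.6, 15.0 and 14.1 CPM in untreated and 9.79, 9.27 and 9.99 CPM in treated libraries. Its log2 fold change was −0.56 (SE 0.13, adjusted p = 0.0104), and 50.1% of its exon bases overlap other genes. MED1, the contact of nuclear receptors, had overlapping libraries with means of 102 ± 10.8 and 113 ± 3.63 CPM. MED14, the scaffold, had means of 71.0 ± 5.54 and 70.2 ± 4.17 CPM and a log2 fold change of −0.02 (SE 0.12).

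The 5 tail subunits, which bind activators, went both ways. MED16 (47.6 ± 4.97 to 34.7 ± 1.49 CPM) and MED24 (55.4 ± 4.79 to 43.5 ± 1.34 CPM) fell, with log2 fold changes of −0.45 (adjusted p = 0.0344) and −0.35 (adjusted p = 0.0413). MED23 (ENSG00000112282, chromosome 6, 131573966 to 131628229) rose from 34.4, 40.2 and 31.8 CPM to 45.4, 57.0 and 52.1 CPM (log2 fold change 0.54, SE 0.18, adjusted p = 0.0476). MED15 and MED25 did not pass, at −0.22 and −0.30. MED16, MED23 and MED24 missed the threshold when any 1 of the 6 AGS libraries was left out, MED23 and MED24 also without MKN1 untreated replicate 2 and MED23 without MKN1 treated replicate 2, whereas MED27 and MED26 passed whichever library was left out. With no filter on low counts MED23 and MED24 missed it, and under a block for replicate number MED16 and MED24 did.

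In the kinase module, CDK19 (ENSG00000155111, chromosome 6, 110609978 to 110815958) rose from 23.5, 26.9 and 22.5 CPM to 37.2, 37.7 and 33.1 CPM in AGS, with 0.57 as the log2 fold change (SE 0.14, adjusted p = 0.012). Its paralog CDK8 had 45.0, 45.4 and 43.9 CPM in untreated and 48.2, 52.6 and 48.7 CPM in treated libraries. Those groups did not overlap either, but the log2 fold change of 0.15 (SE 0.11, adjusted p = 0.357) did not pass. Per kilobase of exon, the ratio of CDK8 to CDK19 was 3.92 ± 0.30 in untreated and 2.94 ± 0.19 in treated AGS cells (SD, n = 3). MED13 was at 177, 174 and 154 CPM in untreated and 169, 192 and 180 CPM in treated libraries (log2 fold change 0.10, SE 0.11, adjusted p = 0.562), and the groups overlapped. Its paralog MED13L was at 96.6, 96.8 and 83.1 and at 109, 121 and 116 CPM, apart but short of the threshold (0.32, SE 0.14, adjusted p = 0.111). CCNC, the cyclin that activates both kinases, had means of 178 ± 4.56 and 168 ± 10.2 CPM, and MED12, which links the cyclin to MED13, had 29.4 ± 2.69 and 25.2 ± 0.67 CPM; neither passed. CDK19 missed the threshold without AGS untreated replicate 1 or 3 or AGS treated replicate 2.

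**Figure D3:**
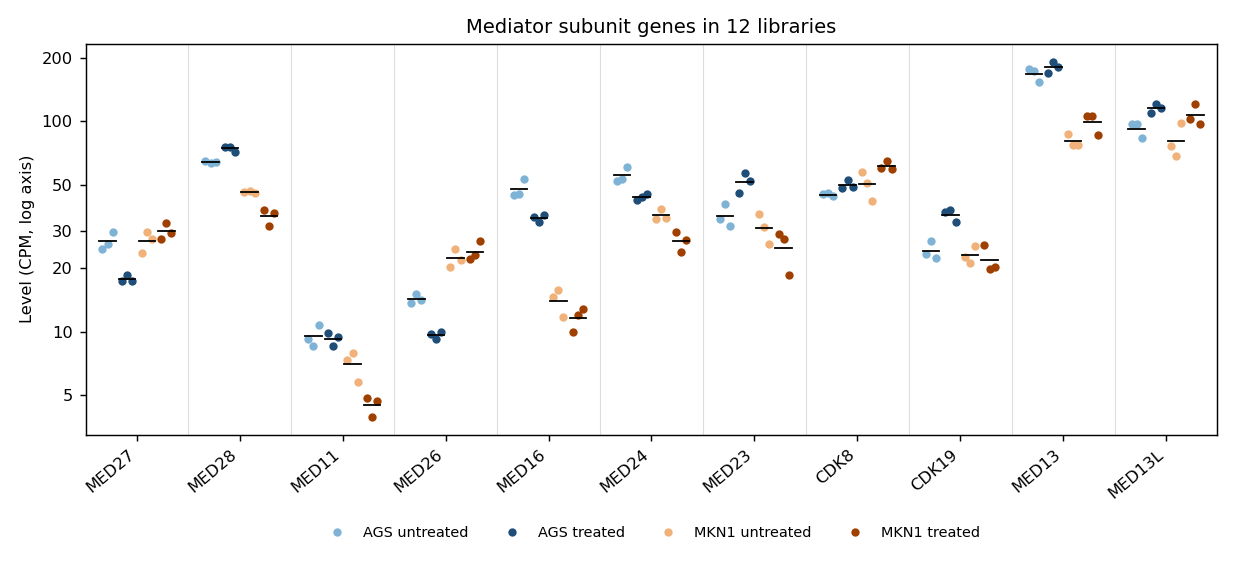
Levels of 11 Mediator subunit genes in each of the 12 libraries, in CPM on a log axis; points are libraries and short bars are group means. In AGS, MED27, MED26, MED16 and MED24 are lower and MED23 and CDK19 higher in treated libraries (dark blue), and in MKN1 MED28, MED11 and MED24 are lower in treated libraries (dark orange).

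Set side by side within AGS, 58.3% of polymerase genes and 12.5% of Mediator genes fell, with medians of −0.46 and −0.07. Of all genes tested, 11.6% fell. With AGS fitted alone, 8368 genes were called, against 4214 in the joint fit. Of the 12 polymerase genes 8 were then lower, and of the 32 Mediator genes 12 were lower and 7 higher. The gap in calls between the 2 sets was therefore smaller in that fit, in which calls over all genes had also risen. Against the mean of the untreated libraries, the median log2 level of the polymerase genes was −0.40, −0.56 and −0.40 in the 3 treated AGS libraries, and that of the Mediator genes was −0.12, −0.07 and −0.09. All 3 treated libraries therefore showed the lower polymerase level. This contrast is a description, since subunits are not replicates of a condition.

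Across genes, the changes in AGS were related to the GC content of the transcript. Over 20207 genes with a known transcript, the AGS log2 fold change correlated with GC content at Spearman's rho −0.27, over the 12 polymerase genes at −0.75 and over the 32 Mediator genes at −0.58; genes share libraries and are not independent. In MKN1 the correlations with GC content were −0.11, −0.24 and −0.32 in the same order. Polymerase transcripts were the richer in GC, with a median of 56.0% against 46.2% for Mediator and 48.5% for all genes. With the trend of each library on GC content and length removed, the same 7 polymerase genes were lower in AGS, with a median of −0.34. Of the Mediator genes, MED27, MED26, MED6, MED17 and CCNC were then lower and CDK19 higher (median −0.12), whereas MED16, MED24 and MED23 no longer passed.

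**Figure D4:**
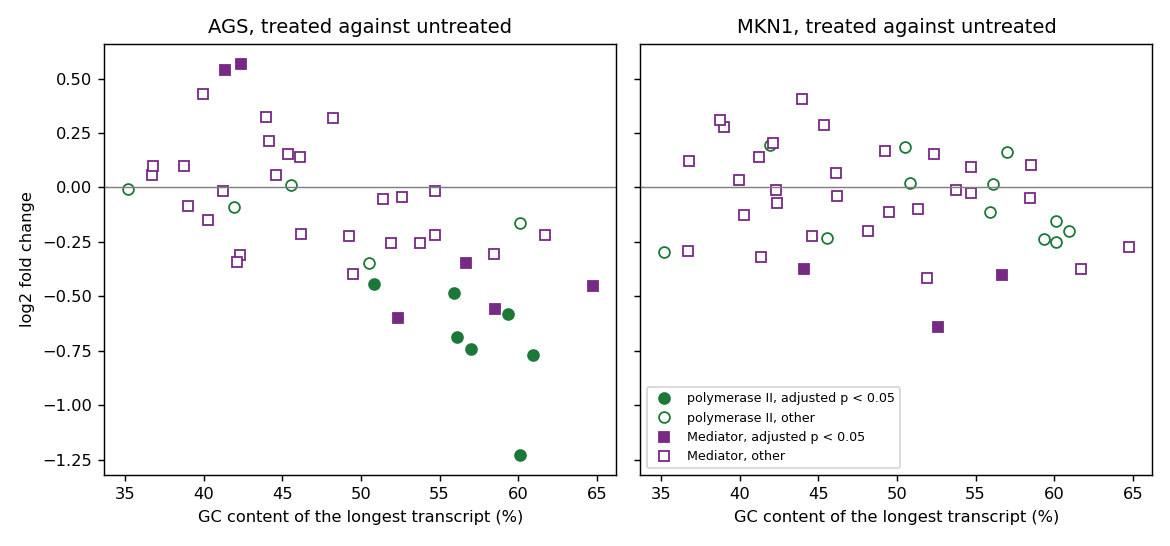
Log2 fold change (treated against untreated) of the 44 subunit genes against the GC content of the longest transcript, in AGS (left) and MKN1 (right); green circles are polymerase II genes, purple squares Mediator genes, and filled symbols had an adjusted p below 0.05. In AGS the changes lie on both sides of 0 at low GC content and below 0 at high GC content. All 7 polymerase genes that fell lie above 50% GC.

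In MKN1 cells, none of the 12 polymerase genes passed the test, and 3 of 32 Mediator genes fell (MED11, MED24 and MED28) while none rose, 9.38% beside 6.7% of all genes tested (3.9% lower and 2.8% higher). The median log2 fold change was −0.13 for polymerase and −0.03 for Mediator genes, against 0.01 for all genes. At an unadjusted p below 0.05 there were 2 polymerase genes by edgeR, 3 by DESeq2 and 2 by limma. The share of all genes at that unadjusted threshold is not reported here, so these counts have no background beside them. None of the 12 passed after adjustment by any of these tools. POLR2A was at 107, 107 and 94.8 CPM in untreated and 98.2, 78.8 and 135 CPM in treated MKN1 libraries, with treated libraries on both sides of the untreated ones (log2 fold change 0.02, SE 0.15, adjusted p = 0.962). POLR2L was at 43.3, 53.9 and 45.3 and at 47.4, 27.9 and 52.6 CPM, again overlapping (−0.15, SE 0.19). Of the others, POLR2F was at 36.4, 43.9 and 37.4 CPM and at 44.2, 32.9 and 54.3 CPM, POLR2I at 35.0, 43.7 and 36.4 CPM and at 35.0, 27.2 and 37.9 CPM, and POLR2E at 67.5, 79.7 and 72.3 CPM and at 61.9, 58.2 and 66.0 CPM. POLR2E and POLR2D were the only polymerase genes with all treated MKN1 libraries below all untreated ones.

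The Mediator genes lower in treated MKN1 cells were close to the threshold. MED11 (ENSG00000161920, chromosome 17, 4731428 to 4733610), a head subunit, was at 7.31, 7.92 and 5.79 CPM in untreated and 4.83, 3.94 and 4.68 CPM in treated libraries (log2 fold change −0.64, SE 0.18, adjusted p = 0.0487). Other genes cover 36.9% of the exon bases of MED11. MED28, another head subunit, was at 45.9, 46.4 and 45.5 CPM and at 38.0, 31.9 and 36.5 CPM (−0.37, SE 0.09, adjusted p = 0.0332), and other genes cover 32.1% of its exon bases. MED24 was at 34.3, 38.1 and 34.6 CPM and at 29.6, 23.9 and 27.4 CPM (−0.40, adjusted p = 0.0486) and was the only member to fall in both lines. The groups of all 3 genes were apart, as were those of 21.4% of all genes tested in MKN1 (11.4% lower and 9.95% higher). All 5 tail genes had estimates below 0 (median −0.32) and 5 of 6 kinase module genes had estimates above 0 (median 0.28), but apart from MED24 none of these passed. Of all 20280 genes tested in MKN1, 10029 had estimates below 0 and 10251 above.

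CDK8 was at 57.5, 51.1 and 41.7 CPM in untreated and 59.6, 64.4 and 59.5 CPM in treated MKN1 libraries (log2 fold change 0.29, SE 0.11, adjusted p = 0.151), and CDK19 at 22.5, 21.2 and 25.7 and at 25.9, 19.8 and 20.3 CPM (−0.07, SE 0.14, adjusted p = 0.793). Their ratio per kilobase was 4.65 ± 1.06 in untreated and 5.99 ± 1.02 in treated MKN1 cells, a difference near the spread between replicates. MED13 was at 86.7, 76.9 and 77.3 CPM and at 106, 106 and 86.2 CPM (0.31, SE 0.11, adjusted p = 0.118). MED13L was at 76.0, 68.5 and 97.7 CPM and at 103, 121 and 97.1 CPM (0.40, SE 0.14, adjusted p = 0.0955), where MKN1 untreated replicate 3 gave the overlap.

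The MKN1 calls depended on single libraries. Over all genes tested, 336 to 3160 passed in MKN1 when 1 library was left out, against 1358 with all libraries. Without MKN1 untreated replicate 3, 5 Mediator genes were lower (MED11, MED28, MED4, MED15 and MED24), 2 were higher (MED22 and MED13L) and 1 polymerase gene, POLR2K, was lower. MED22 was at 98.5 CPM in that library and at 37.0 and 42.5 CPM in the other untreated MKN1 libraries. Without MKN1 untreated replicate 1 or 2, or MKN1 treated replicate 2, no member passed in MKN1; nor did any without any one of the AGS libraries, which share the estimate of spread. MED11, MED24 and MED28 also missed it with library totals, with no filter, under the replicate block and with MKN1 fitted alone, and MED11 and MED24 with upper-quartile factors.

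The difference between the treatment effects was tested directly as MKN1 minus AGS; it shares its libraries with both comparisons above. Of the polymerase genes, 3 of 12 passed (25%), beside 15.7% of all genes tested (8.38% higher and 7.3% lower): POLR2L at 1.07 (SE 0.27, adjusted p = 0.0191), POLR2F at 0.90 (SE 0.24, adjusted p = 0.0241) and POLR2A at 0.71 (SE 0.22, adjusted p = 0.0449). All 3 fell in AGS and overlapped between groups in MKN1. POLR2C (0.46, adjusted p = 0.0513) and POLR2I (0.57, adjusted p = 0.0723) were just outside the threshold, and the median of the 12 differences was 0.42. POLR2C passed with upper-quartile factors, library totals, DESeq2, limma, the filter of 5 CPM and with GC and length trends removed. POLR2I passed with library totals, DESeq2 and with those trends removed, and POLR2G under the replicate block. POLR2A missed the threshold on leaving out any 1 library other than MKN1 treated replicate 2, with adjusted p up to 0.0974, and also with no filter, under the replicate block and with GC and length trends removed. POLR2L missed it without AGS treated replicate 2. POLR2F missed it without AGS untreated replicate 3, AGS treated replicate 2 or 3, or MKN1 untreated replicate 1. Without MKN1 untreated replicate 3, 4 polymerase genes passed (POLR2C, POLR2F, POLR2G and POLR2L). Without AGS treated replicate 2 none did by edgeR, with 5 at an unadjusted p below 0.05. For that unadjusted threshold the share of all genes is not reported here.

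Of the Mediator genes, 5 of 32 passed (15.6%), a share near that of all genes tested. Without MKN1 untreated replicate 3, 10 Mediator genes passed, these 5 with MED11 and MED4 lower and MED22, MED25 and MED12 higher. Without any other 1 library, between 2 and 5 passed. Calls of the difference over all genes tested ran from 2098 to 4643 with 1 library left out, against 3180 with all libraries. MED27 (0.75, SE 0.18, adjusted p = 0.0135) and MED26 (0.66, SE 0.18, adjusted p = 0.0265) had fallen in AGS, while in MKN1 MED27 was at 23.6, 29.9 and 27.5 CPM in untreated and 27.7, 33.0 and 29.5 CPM in treated libraries. MED26 was at 20.2, 24.8 and 22.0 CPM and at 22.0, 23.1 and 26.9 CPM in MKN1, and both genes overlapped there. MED23 (−0.86, SE 0.25, adjusted p = 0.036), CDK19 (−0.64, SE 0.19, adjusted p = 0.0393) and MED28 (−0.58, SE 0.13, adjusted p = 0.00979) went the other way. MED23 was at 36.3, 31.3 and 26.1 CPM in untreated and 29.1, 27.5 and 18.5 CPM in treated MKN1 libraries. MED28 in AGS was at 64.7, 63.5 and 64.3 CPM in untreated and 75.7, 75.5 and 71.7 CPM in treated libraries, apart and higher, but short of the threshold there (0.21, SE 0.09, adjusted p = 0.119). MED27 and MED28 passed whichever library was left out. MED26 missed the threshold without any 1 AGS library or MKN1 untreated replicate 1, MED23 without AGS untreated replicate 1 or 3, AGS treated replicate 2 or 3, MKN1 untreated replicate 1 or 2 or MKN1 treated replicate 3, and CDK19 without AGS untreated replicate 1 or 3, any AGS treated replicate, MKN1 untreated replicate 1 or MKN1 treated replicate 2 or 3. With library totals MED23 and CDK19 missed it, and CDK19 did so too with no filter and with GC and length trends removed. With those trends removed MED17, CCNC and MED13 passed as well, as higher.

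Before treatment, the 2 lines already differed in many of these genes. Of 12 polymerase genes, 3 were lower and 5 higher in untreated MKN1 than in untreated AGS, and of 32 Mediator genes 12 were lower and 9 higher; 66.7% and 65.6% compare with 66.3% of all genes tested (31.4% lower and 34.9% higher). This comparison shares the untreated libraries with the treatment effects. POLR2A and POLR2B had log2 differences of −1.11 (SE 0.16, adjusted p = 3.26e-05) and −1.42 (SE 0.17, adjusted p = 6.81e-06), and the treated AGS libraries (134 to 140 CPM) still had more POLR2A than the untreated MKN1 libraries (94.8 to 107 CPM). POLR2D (0.86) and POLR2K (0.80) were the highest in MKN1 relative to AGS. In Mediator, the middle subunits MED10 (47.0 ± 3.66 against 160 ± 15.0 CPM, log2 fold change 1.77) and MED21 (43.2 ± 1.50 against 133 ± 26.9 CPM, 1.63) were higher in MKN1, and MED16 (−1.76), MED6 (−1.36), MED13 (−1.07) and MED25 (−1.02) were lower.

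Per kilobase of exon, the 12 polymerase genes in untreated AGS ranged from 5.26 CPM per kb for POLR2F to 53.1 ± 1.23 for POLR2L and 50.8 ± 2.88 for POLR2B, which did not differ beyond their spread. Mediator genes ranged from 2.09 for MED31 to 30.9 for CCNC in untreated AGS. For MED31, 58.35% of the exon bases overlap TXNDC17 on the other strand, so its level is uncertain. In untreated MKN1 the highest member was MED10 at 85.3 ± 7.98 CPM per kb and the lowest MED9 at 1.99. The low place of POLR2F depends on the length used: with the longest transcript in place of all exons it was at 17.6 CPM per kb. The ratio of MED13 to MED13L per kilobase, 5.38 ± 0.08 in untreated and 4.61 ± 0.07 in treated AGS and 3.00 ± 0.58 and 2.75 ± 0.25 in MKN1, fell to 2.55, 2.19, 1.42 and 1.30 with the longest transcript.

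Other genes of the pathway had calls in both directions in AGS. Of 31 general transcription factor genes 4 fell and 3 rose, of 31 pausing and elongation genes 4 fell and 3 rose, of 9 polymerase II assembly genes none fell and 1 rose, and of 19 polymerase I and III genes 2 fell and 2 rose. Of 14 Integrator genes 4 fell and none rose, and of 7 C-terminal domain phosphatase genes 3 fell and 1 rose. The shares that passed, 22.6%, 22.6%, 11.1%, 21.1%, 28.6% and 57.1% in that order, stand beside 20.8% of all genes tested and lie near it for the factor, elongation and polymerase I and III lists. The medians of these 6 lists in AGS lay between −0.22 and −0.03. In MKN1, 1 of 31, 1 of 31, 0 of 14, 0 of 7, 0 of 9 and 1 of 19 genes fell in the same lists of factors, elongation, Integrator, phosphatase, assembly and polymerase I and III genes, and 0, 0, 1, 1, 0 and 1 rose, beside 3.9% and 2.8% of all genes tested; no list had more than 2 calls.

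PPP1R10, which encodes the PP1 targeting subunit of a complex that acts on the C-terminal domain, changed in opposite directions, from 164 ± 13.4 to 56.4 ± 2.20 CPM in AGS (log2 fold change −1.54, adjusted p = 5.25e-05) and from 54.4 ± 5.26 to 95.7 ± 16.2 CPM in MKN1 (0.82, adjusted p = 0.00557). MEPCE, a capping enzyme of the 7SK RNA that holds the elongation kinase inactive, fell in AGS from 76.2 ± 6.63 to 33.8 ± 1.46 CPM (−1.17, adjusted p = 0.0008), and PAF1, of the elongation complex of that name, from 142 ± 9.26 to 78.4 ± 4.00 CPM (−0.85, adjusted p = 0.000235). CDK9, the elongation kinase, fell in MKN1 by 0.46 (adjusted p = 0.0492) and was at −0.01 in AGS. That call was lost under 5 of 10 alternatives and on leaving out 10 of 12 libraries in turn (adjusted p up to 0.228). GTF2H3, a TFIIH subunit, rose by 0.76 in AGS, and TAF6, a TFIID subunit, fell by 0.77 in MKN1. INTS6 rose by 1.32 in MKN1 with treated libraries at 128 ± 54.5 CPM. The polymerase III subunit POLR3GL rose in AGS (0.80, adjusted p = 0.0109) and fell in MKN1 (−0.81, adjusted p = 0.0281), and its paralog POLR3G rose in MKN1 (0.76, adjusted p = 0.0171). With MKN1 fitted alone, PPP1R10, TAF6, INTS6, POLR3GL and POLR3G missed the threshold in that line. POLR3GL in MKN1 also missed it under the replicate block and without MKN1 untreated replicate 2 or MKN1 treated replicate 3, POLR3G without MKN1 untreated replicate 2 or MKN1 treated replicate 2, and POLR3GL in AGS without AGS treated replicate 2.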

How the data were processed

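Raw counts per gene in 12 columns were deposited, with no normalization by the authors. Per the labels' protocols, total RNA was extracted with TRIzol and mRNA libraries were made with the NEBNext Ultra RNA kit. Alignment used HISAT2 2.0.4 and the build hg38/GRCh38, per the submitters' processing notes. For the counting tool, its strand setting and its annotation, the labels name nothing. Symbols matched 32069 of 32269 identifiers, and GENCODE release 29 gave exon lengths, GC content and overlaps.

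All 12 libraries were fitted together in edgeR 4.0.16 (R 4.3.3): filterByExpr over the 4 groups, TMM factors, the quasi-likelihood F test, and Benjamini-Hochberg adjustment over 20280 genes with a threshold of 0.05. Residual degrees of freedom were 8, prior degrees of freedom 4.91 and the common biological coefficient of variation 19.7%. The fit was tested on simulated data. CPM use TMM-scaled library sizes. Levels are mean ± SD, SE is that of the fit, and a library's median used log2(CPM + 0.5). A total of 28604966 to 51604215 counts set the precision: 3 counts, about 0.058 to 0.105 CPM, and all counting limits cover counting error only, since no molecular identifiers mark single molecules. No library was a copy of another: the lowest chi-square per degree of freedom within a group was 9.78.

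The members and lists were chosen with earlier results of these data known. Values of every library are given for members past the threshold in AGS, in MKN1 or in the difference by 0.5 or more in absolute log2 fold change, for POLR2A, and for CDK8, CDK19, MED13 and MED13L. Other lists are given by counts and by the 2 genes with the smallest adjusted p per line among those with a mean of at least 5 CPM, of which the text names some and some are not reported here. Alternatives were DESeq2 1.42.0 and limma 3.58.1 (voom), other scalings and filters, a replicate block, each line alone, removal of GC and length trends, and each library left out.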

Additional observations from a re-analysis of the deposited data

Results flagged for a closer look

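The treatment effect differed between the lines, by edgeR's test of the difference itself (MKN1 minus AGS, log2 scale), for 8 members and 12 reported genes of the other lists. The 8 members were 18.2% of the 44, near the 15.7% of all genes tested. The members were POLR2A (0.71), POLR2F (0.90), POLR2L (1.07), MED27 (0.75), MED26 (0.66), MED28 (−0.58), MED23 (−0.86) and CDK19 (−0.64).

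Among general transcription factors these were GTF2A2 (0.58), which fell in AGS, TAF6 (−0.74) and GTF2H3 (−1.05). Among elongation genes they were MEPCE (1.23) and PAF1 (0.79). Among Integrator genes they were INTS3 (1.10), INTS6 (1.65) and INTS7 (0.81). INTS3 and INTS7 fell in AGS, INTS6 rose in MKN1, and INTS5, which fell in AGS, did not differ past the threshold (adjusted p = 0.0623). PPP1R10 (2.36) and POLR3GL (−1.61) passed the test in opposite directions in the 2 lines. The others were SSU72 (0.64), a phosphatase of the C-terminal domain that fell in AGS, and POLR2M (−0.47). The POLR2M difference missed the threshold with library totals, with no filter, under the replicate block, with GC and length trends removed and on leaving out 9 of 12 libraries in turn (adjusted p up to 0.117). The SSU72 difference missed it with no filter and on leaving out 7 of 12 libraries (up to 0.0824), and the INTS7 difference without any 1 AGS library (up to 0.0613). The fall of INTS3 in AGS was lost with no filter and without any 1 AGS library or MKN1 treated replicate 1, and that of GTF2A2 without AGS treated replicate 2.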

How the results depend on the processing

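The same 7 polymerase genes were lower in AGS under all 10 alternatives apart from left-out libraries, with POLR2G as an eighth under the replicate block and with AGS fitted alone. Leaving out each library gave 5 to 7 lower in AGS and 0 to 1 in MKN1, medians of −0.50 to −0.41 in AGS and −0.23 to −0.0027 in MKN1, and with GC and length trends removed the AGS median was −0.34. The cause of the changes below was not tested. Leaving out samples or fitting each line alone also changes how many libraries the spread is estimated from.

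The treatment effect in AGS called 4214 genes, 8368 with the line fitted alone and 2051 to 5533 with libraries left out. The treatment effect in MKN1 called 1358, and 2424 by the DESeq2 test, 809 with no filter, 34 with the line fitted alone and 336 to 3160 with libraries left out. The difference of treatment effects called 3180, and 2098 to 4643 with libraries left out.

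Mediator subunits lower in AGS numbered 4, with 2 under the replicate block, 12 with the line alone and 2 to 6 with libraries left out. Mediator subunits higher in AGS numbered 2, with 4 by DESeq2, 1 with no filter, 7 with the line alone, 1 with GC and length trends removed and 0 to 4 with libraries left out. The median of the Mediator subunits in AGS was −0.12 with those trends removed and −0.112 to −0.0682 with libraries left out.

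Mediator subunits lower in MKN1 numbered 3, with 1 under upper-quartile factors, 0 with library totals, 5 by DESeq2, 0 with no filter, 0 under the replicate block, 0 with the line alone, 5 with GC and length trends removed and 0 to 5 with libraries left out. Mediator subunits higher in MKN1 numbered 0, with 1 with those trends removed and 0 to 2 with libraries left out. The median of the Mediator subunits in MKN1 was 0.0346 with library totals, which moved the median of all genes from 0.0057 to 0.0805, so it lay below that of all genes under both scalings. It was −0.0057 with the filter of 5 CPM, −0.0069 with those trends removed and −0.0891 to 0.0065 with libraries left out (above 0 without MKN1 treated replicate 1). The series' design text names no pairing by replicate number, so the block was only an alternative. After removing group means, same-numbered AGS libraries correlated at 0.0124, 0.0203 and −0.0441 and MKN1 libraries at 0.0799, −0.0396 and 0.176. Differently numbered pairs ran from −0.0652 to 0.0538 in AGS and from −0.181 to 0.116 in MKN1. Deviations of 3 libraries from their mean are tied to each other, so these values cannot exclude a pairing. Each line fitted alone gives no value for the difference or for the untreated lines. The ratio of MED13 to MED13L depends on the length used, and low-count members such as MED31 are the least precise.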
